A study of Homo sapiens with 18 samples.

Results

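The 96 genes described here were higher in GFP-transduced human keratinocytes at 48 h than at 12 h, and were lower at 48 h in keratinocytes that carried TEADi, an inhibitor of the TEAD transcription factors. They were chosen by these values, from genes on chromosomes 1 to 22 or X whose deposited value reached 1 in 3 libraries or more. Means of log2(TMM normalized CPM + 1) had to differ by the log2 of 1.5 or more between GFP at 48 h and GFP at 12 h, in the upward direction. TEADi had to be lower than GFP at 48 h by the same limit, with all 3 TEADi libraries below all 3 GFP libraries, and not lower by that much at 24 h. Of 15896 listed genes, 13417 passed the filter on low values, 1125 on those chromosomes met the rise in GFP, and 96 of these (8.53%) met every criterion. The other 1029 rises comprised 13 that were already lower by 24 h, 176 that were higher in TEADi at 48 h by the same limit, and 840 that were neither.

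RNA was taken from N/TERT2G keratinocytes, a human line that had been immortalized, at 12, 24 and 48 h after adenoviral transduction. Control cells (GFP) received a virus expressing green fluorescent protein alone. The TEADi virus expressed green fluorescent protein joined to those parts of VGLL4, YAP1 and TAZ that bind TEAD, with a nuclear localization signal, so both arms carried an adenovirus and a fluorescent protein. Cells were transduced at a multiplicity of infection of 25 on the day after plating, in a serum-free keratinocyte medium with growth supplement. Each virus and time had 3 libraries, 18 in all, and since the labels give no origin of each culture, p-values refer to the spread among these libraries, which may be technical. Since every difference between 12 and 48 h is a difference in culture time as well as in time after transduction, the effects of plating, growth and virus on it cannot be told apart.

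TEAD proteins bind DNA at a short motif and need the Hippo pathway coactivators YAP1 and TAZ to activate genes. In the epidermis this activity is known for keeping basal keratinocytes in a growing, undifferentiated state. ATF4, a second factor that many genes below are known to answer to, is made when cells are short of amino acids or burdened with unfolded protein, and it turns on amino acid synthesis and import.

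Depth, estimated from the lowest values of each library, ran from 14.2 to 26.7 M reads. All 12 keratinocyte markers examined were detected, and their summed level lay between 24330 and 51674 CPM, with the 48 h TEADi libraries highest. At 48 h, fibroblast markers summed to 44.5 to 48.8 CPM in GFP and 77.1 to 79.8 in TEADi (8 of 13 in the table), and immune and endothelial markers to 34.5 to 40.4 and 51.3 to 60.4 CPM (5 of 13). Melanocyte markers summed to 1.56 to 1.97 CPM in GFP and 0.890 to 1.49 in TEADi (2 of 9, MITF and PMEL). Of these sums only that of the melanocyte markers was, like the 96 genes, lower in TEADi at 48 h, and its part in the results was not tested. Only MITF was lower, with means of 1.17 CPM in GFP and 0.451 in TEADi at 48 h, while PMEL had 0.580 and 0.668. In bulk RNA, fewer cells that express a gene and less RNA per cell cannot be told apart.

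The arms lay closer at 12 h and 24 h than at 48 h, as the choice of the 96 genes required at 24 h and 48 h. The median difference between GFP at 48 h and 12 h was 0.91 on the log2 scale, with a range from 0.59 to 2.35, and the median difference between TEADi and GFP at 48 h was -0.81, from -1.53 to -0.59. These values chose the genes and carry no test. At 12 h the median difference between the arms was -0.05 and at 24 h it was -0.18, with the TEADi mean below the GFP mean at 24 h in 81 of the 96. Within TEADi alone the median difference between 48 h and 12 h was 0.17, against 0.84 over the other 1029 rises and 0.01 over all tested genes.

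**Figure D1:**
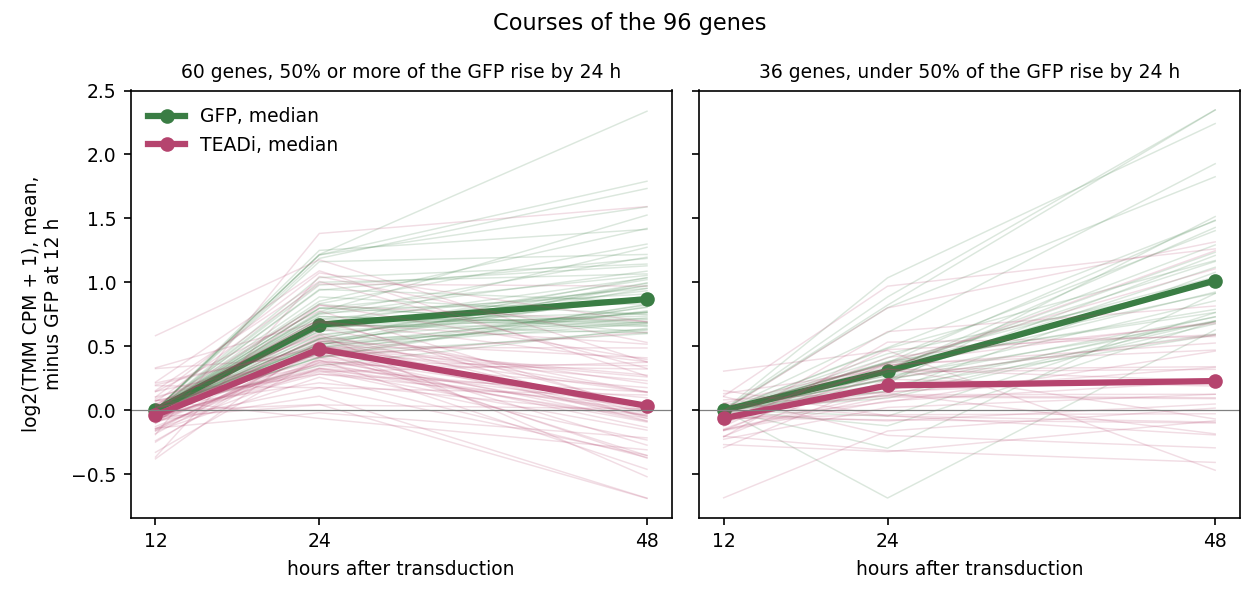
Mean log2(TMM CPM + 1) of each of the 96 genes less its GFP mean at 12 h (vertical axis) against hours after transduction (horizontal axis), thin lines for genes and thick lines for medians, GFP in green and TEADi in magenta. Of the 96 genes, 60 had 50% or more of their GFP rise by 24 h (left) and 36 had less (right), and in the left panel the TEADi median is higher at 24 h than at 12 h or 48 h.

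Most of the genes were thus higher at 24 h in both arms, and the TEADi values then came down. In 62 of the 96 genes the TEADi mean was higher at 24 h than at 12 h and lower again at 48 h. All 3 TEADi libraries at 24 h lay above all those at 12 h and at 48 h in 40 of the 96 genes, whereas 7.52% of all tested genes had this pattern, and in GFP 2 of the 96 genes had it. The TEADi libraries of 24 h and 48 h and all GFP libraries entered the choice of genes, so both parts of this pattern are a description. The limit at 24 h kept genes with higher TEADi values there. The required rise in GFP by 48 h worked against a GFP peak at 24 h, so the GFP count is a description too. Taken alone, all 48 h TEADi libraries lay below all 24 h TEADi libraries in 46 of the 96 genes, against 32.5% of all tested genes.

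The values of early and late genes are given side by side without a test, because the choice of genes shaped them. A gene with most of its GFP difference by 24 h had to be not much lower in TEADi at 24 h and lower at 48 h, which favours a TEADi value that comes down between these times. Over the 60 genes with 50% or more of their rise by 24 h, the median change from 24 to 48 h was 0.25 in GFP and -0.40 in TEADi. Over the 36 later genes it was 0.82 in GFP and 0.10 in TEADi. The change from 12 to 48 h in TEADi, as a share of the same change in GFP on the log2 scale, had a median of 7.51% in the early and 34.4% in the late genes. Over all 96 genes this share had a median of 17.4%, was below 0 in 33 genes and was 50% or more in 15. By size 18 of the 96 genes were at least 1.5-fold higher in TEADi at 48 h than at 12 h, against 14.7% of all tested genes and 766 of the 1029 other rises.

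**Figure D2:**
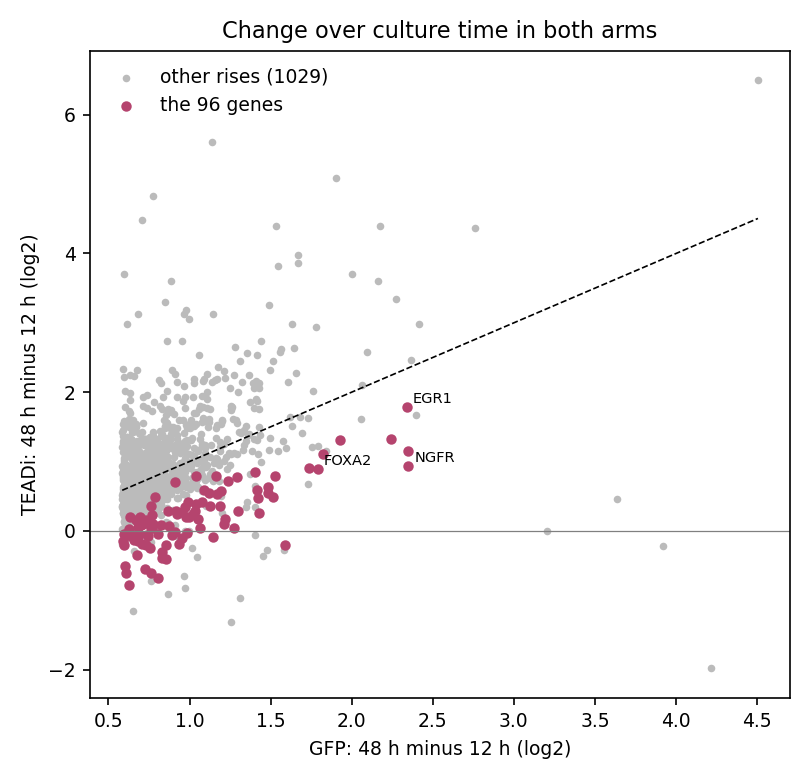
Difference between 48 h and 12 h in GFP (horizontal axis, log2) and in TEADi (vertical axis, log2) for all 1125 rises, the 96 genes in magenta and the other 1029 in grey. The dashed line marks equal change in both arms, and the magenta points lie below it because they were chosen so, with EGR1, NGFR and FOXA2 among those with the largest change in GFP.

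Levels in TEADi at 48 h overlapped with those of GFP at 12 h in most of the set. All 48 h TEADi libraries lay above all 12 h GFP libraries in 29 of the 96 genes, against 35.7% of all tested genes, and below them in 11, against 33.4%. The 11 were AIF1L, AOX1, SFTA1P, SLC48A1, NPDC1, DDIT3, NTNG1, STC2, CHAC1, ASB1 and PCSK6.

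The scaling moved these values. With the deposited TPM and a pseudocount of 0.1, the median of all tested genes for GFP at 48 h less 12 h was lower by 0.16 than with TMM values. Relative to the median of all genes, the 96 genes were 0.88 higher with TMM and 0.70 higher with TPM. All 96 kept the direction of both differences that chose them, which their choice by size favoured. Most of the 96 did not meet the full rule with these TPM values. For TEADi at 48 h less 12 h the median of the 96 was 0.17 with TMM and -0.01 with TPM, but relative to all genes it was 0.16 with either.

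Genes of the ATF4 response formed the largest annotated group. Of 32 listed genes 31 were tested, and 9 of these were among the 96: ASNS, CHAC1, DDIT3, PCK2, PSAT1, SHMT2, SLC7A11, STC2 and TRIB3. All 9 had 50% or more of their GFP rise by 24 h. In 8 of the 9 every TEADi library at 24 h lay above those at 12 h and 48 h.

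ASNS, which makes asparagine, was measured at 74.9, 68.2 and 63.9 CPM in GFP at 12 h, 131, 141 and 127 at 24 h, and 158, 161 and 156 at 48 h. In TEADi its levels were 69.7, 69.9 and 72.0 CPM at 12 h, 123, 122 and 123 at 24 h, and 88.6, 92.6 and 91.5 at 48 h. The arms overlapped at 12 h, no longer overlapped at 24 h, by a small margin, and were far apart at 48 h, with a ratio of TEADi to GFP means of 0.575. CHAC1, an enzyme that breaks down glutathione, had 21.7, 21.4 and 20.8 CPM in GFP at 12 h and 31.7, 33.9 and 37.0 at 48 h. Its TEADi levels were 16.7, 19.9 and 17.1 CPM at 12 h, 30.4, 30.3 and 29.6 at 24 h, and 17.4, 15.03 and 16.2 at 48 h. All CHAC1 TEADi values at 48 h were thus below the GFP values at 12 h. They overlapped with the TEADi values at 12 h, which were already all below GFP. At 24 h the TEADi libraries were below the 33.7, 33.2 and 35.7 CPM of GFP by a smaller margin than at 48 h.

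DDIT3, the stress transcription factor CHOP, ended in TEADi below the 12 h libraries of both arms. It had 31.3, 29.2 and 32.8 CPM in GFP at 48 h and 13.7, 14.1 and 13.2 in TEADi, a ratio of means of 0.440. Its TEADi level at 48 h was lower than at 12 h by 0.61 on the log2 scale. STC2, a secreted glycoprotein, also ended below its 12 h GFP values of 156, 148 and 150 CPM, with 236, 220 and 236 CPM in GFP at 48 h and 117, 109 and 103 CPM in TEADi. Enzymes of serine and one-carbon metabolism were part of the group as well. SHMT2, the mitochondrial serine hydroxymethyltransferase, had 346, 329 and 337 CPM in GFP at 48 h and 210, 181 and 189 in TEADi, close to the 211, 200 and 184 CPM of GFP at 12 h. PSAT1, of serine synthesis, had 248, 232 and 229 CPM in GFP at 48 h and 149, 143 and 141 CPM in TEADi.

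SLC7A11, which imports cystine, was the only gene of the 9 with all TEADi libraries above all GFP libraries at 12 h. At 12 h it had 120, 136 and 145 CPM in GFP and 186, 161 and 157 CPM in TEADi, and at 48 h 244, 229 and 241 CPM in GFP and 129, 143 and 134 CPM in TEADi. The libraries of the arms did not overlap at either time, in opposite order. PCK2 and TRIB3, a mitochondrial gluconeogenic enzyme and a pseudokinase, kept more of the change. PCK2 had 157, 152 and 157 CPM in GFP at 48 h and 105, 95.8 and 88.9 in TEADi, above its 69.1, 65.0 and 60.2 CPM of TEADi at 12 h. TRIB3 had 453, 418 and 439 CPM in GFP at 48 h and 316, 272 and 257 in TEADi.

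**Figure D3:**
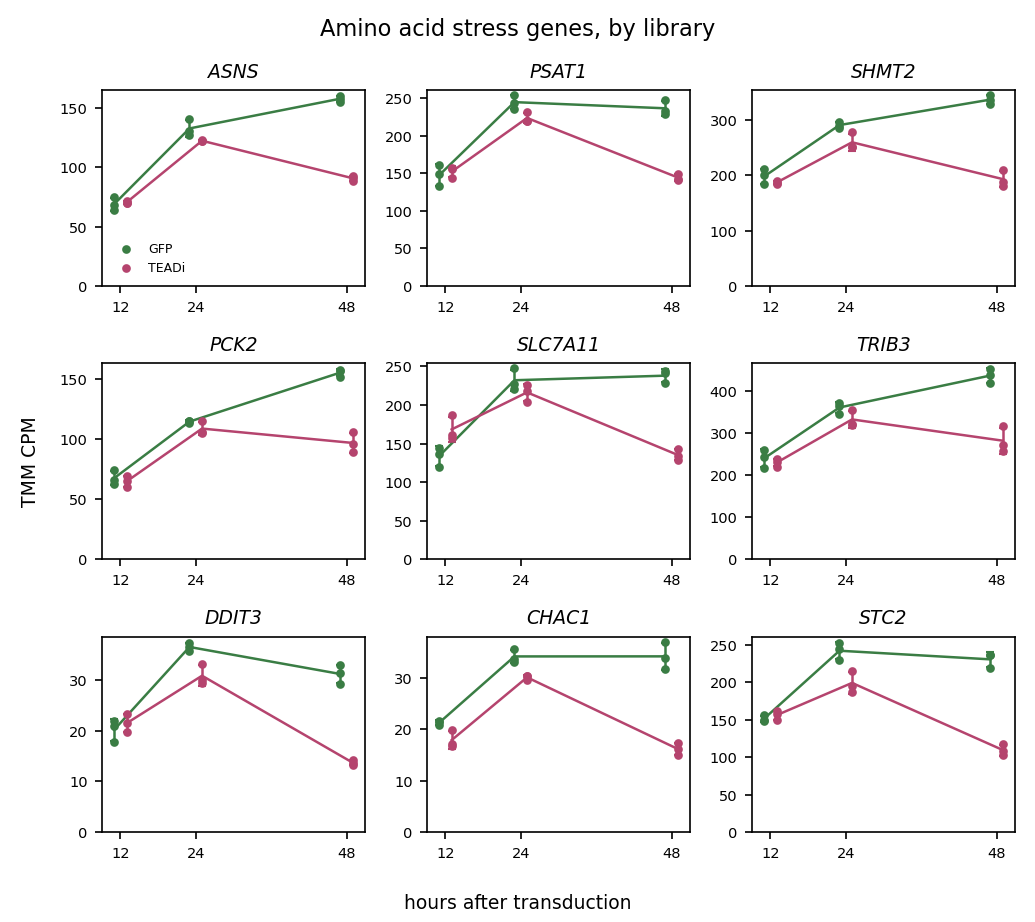
TMM CPM (vertical axes, from 0) against hours after transduction for the 9 ATF4-response genes, with 1 point per library, lines through the means and bars of 1 SD (n = 3), GFP in green and TEADi in magenta. At 24 h the arms lie closer than at 48 h, but for ASNS, CHAC1, DDIT3, PSAT1 and SHMT2 they already do not overlap. At 48 h every TEADi point lies below every GFP point, as the choice of genes required.

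The rest of the ATF4 list was not among the 96 and is given beside them. Over the 31 genes the median difference between TEADi and GFP at 48 h was -0.45, against -0.03 over all tested genes, and 15 were called lower and 0 higher by limma at an adjusted p under 0.05 and 1.5-fold, against 6.3% of all tested genes called lower. Of the 15, 9 were chosen by that contrast. Among the 22 that were not, 6 (27.3%) were called lower: HERPUD1, CTH, MTHFD2, SLC7A5, SLC7A1 and SLC3A2, which were named after their values were seen. SLC7A5 and SLC3A2 form the large neutral amino acid carrier, and SLC7A5 was measured at 2467 ± 88.3 CPM in GFP and 1213 ± 93.6 in TEADi at 48 h (SD, n = 3). Its limma log2 difference was -1.03 ± 0.05 (SE, adjusted p = 2.26e-17).

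In GFP between 12 and 48 h, 17 of the 31 were called higher, against 8.34% of all tested genes, and the members were again chosen by it. The transcript of ATF4 itself was at 547 ± 3.28 CPM in GFP and 399 ± 21.3 in TEADi at 48 h (SD, n = 3), a log2 difference of -0.45 ± 0.04 (SE, adjusted p = 1.13e-10) that missed the fold limit. CEBPB, a partner of ATF4, was the 1 gene of the list that passed the adjusted p in the higher direction. DDIT4, VEGFA and PHGDH were among the 8 rises on the list that did not meet the 48 h limit.

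**Figure D4:**
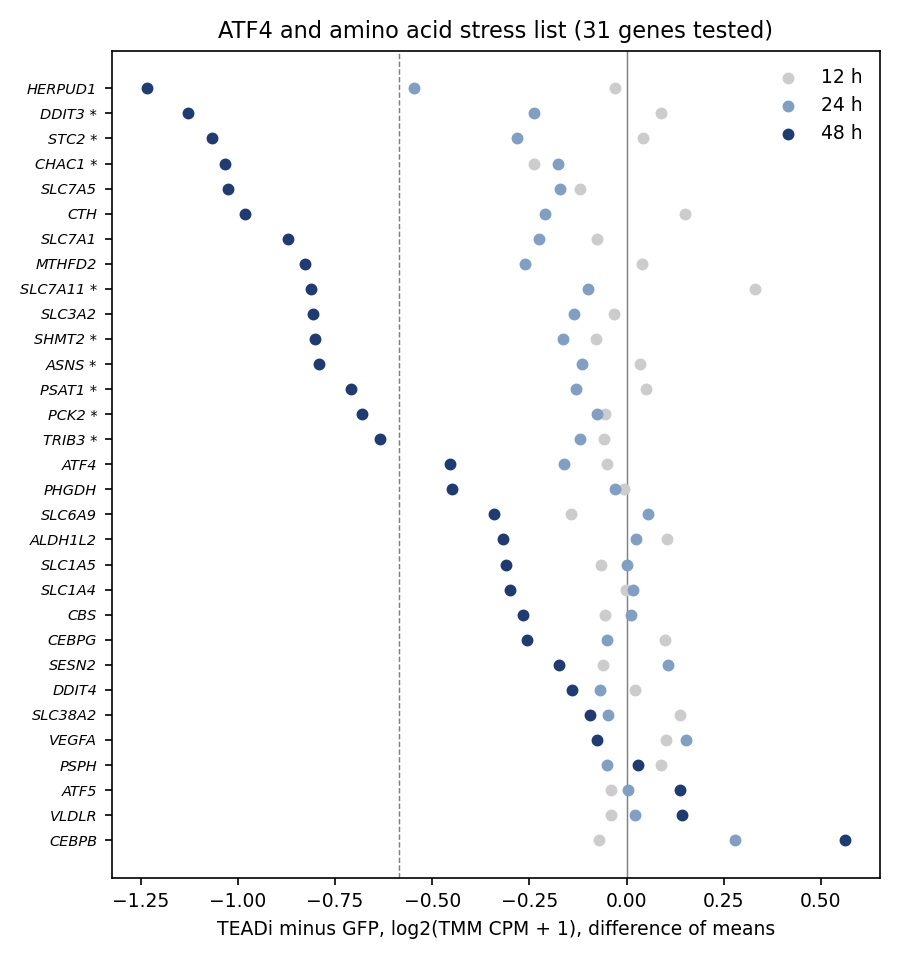
Difference between TEADi and GFP means of log2(TMM CPM + 1) (horizontal axis) for the 31 tested genes of the ATF4 and amino acid stress list (vertical axis, ordered by the 48 h value), at 12 h in grey, 24 h in light blue and 48 h in dark blue. Asterisks mark the 9 genes of the set, and the dashed line marks a 1.5-fold lower level, which 15 of the 31 passed at 48 h.

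The promoters of CHAC1 and ASNS are shown because each holds the core of the ATF4 motif, TGATGNAA on either strand. The bases before the RefSeq transcription start are printed (GRCh38.p14), at chr15:40953221-40953470 on the plus strand for CHAC1 and chr7:97872409-97872658 on the minus strand for ASNS, with the core in capitals.
CHAC1: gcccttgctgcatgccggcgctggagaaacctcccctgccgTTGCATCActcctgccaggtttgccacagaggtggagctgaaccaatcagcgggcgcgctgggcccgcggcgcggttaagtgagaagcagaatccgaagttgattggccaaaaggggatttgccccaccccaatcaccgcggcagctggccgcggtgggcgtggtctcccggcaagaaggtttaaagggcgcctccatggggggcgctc
ASNS: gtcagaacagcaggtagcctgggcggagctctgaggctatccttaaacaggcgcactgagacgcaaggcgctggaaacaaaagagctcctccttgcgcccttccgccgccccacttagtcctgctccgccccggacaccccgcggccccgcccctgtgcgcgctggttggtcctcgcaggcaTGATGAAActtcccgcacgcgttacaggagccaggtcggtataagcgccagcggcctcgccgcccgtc
In CHAC1 the core lies on the strand opposite to the gene, first base at -209 from the start, and in ASNS on the gene's own strand at -68. The core was in 3.67% of 27305 RefSeq promoters of 300 bases and in 3 of the 67 set genes that could be matched, 2 of them among the 7 matched genes of the ATF4 list. The longer form TGATGNAAT, which contains the core, was in 1.02% of promoters and in 0 of the 67.

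ARG2, the mitochondrial arginase, was not on the list, and its promoter holds the cyclic AMP response element TGACGTCA at 2 positions, -172 and -64. It is printed for chr14:67619670-67619919 on the plus strand, with the elements in capitals. The first overlaps a match to the sterol motif TCACNCCAC on the opposite strand.
ARG2: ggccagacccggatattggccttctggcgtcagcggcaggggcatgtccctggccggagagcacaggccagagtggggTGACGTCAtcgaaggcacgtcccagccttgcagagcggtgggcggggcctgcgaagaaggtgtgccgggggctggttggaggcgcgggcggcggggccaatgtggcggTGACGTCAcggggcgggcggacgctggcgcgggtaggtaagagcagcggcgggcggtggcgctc
ARG2 was measured at 15.8, 14.9 and 13.004 CPM in GFP at 12 h and 51.9, 47.8 and 52.2 at 48 h. In TEADi it had 30.5, 28.8 and 29.9 CPM at 24 h and 31.2, 29.0 and 28.0 at 48 h, so its libraries overlapped between these times. TGACGTCA was in 1.98% of all promoters and in 1 of the 67.

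Further genes of the set were named after their values were seen. PYCR1, the last enzyme of proline synthesis, had 99.8, 94.6 and 95.4 CPM in GFP at 48 h and 59.9, 49.6 and 51.6 in TEADi. UPP1, uridine phosphorylase, had 176, 178 and 175 CPM in GFP and 87.8, 92.6 and 82.7 in TEADi. FAM129A, also called NIBAN1, had 186, 173 and 161 CPM in GFP and 108, 114 and 101 in TEADi. All of them were higher at 24 h than at 12 h in every TEADi library.

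Ligands of the EGF receptor, through which keratinocytes stimulate their own growth, were represented by EREG and HBEGF. EREG, epiregulin, had 133, 135 and 150 CPM in GFP at 12 h, 267, 305 and 269 at 24 h and 291, 287 and 301 at 48 h. In TEADi it had 169, 165 and 154 CPM at 12 h, 287, 321 and 286 at 24 h and 160, 178 and 166 at 48 h. TEADi libraries were thus above GFP at 12 h, overlapped with GFP at 24 h and were below it at 48 h. HBEGF, the heparin-binding ligand, had 68.2, 72.2 and 66.5 CPM in GFP at 48 h and 40.9, 36.9 and 38.9 in TEADi. Its 12 h values were 40.5, 42.8 and 38.9 CPM in GFP and 42.0, 41.8 and 39.3 in TEADi, so the 48 h TEADi libraries overlapped with both 12 h groups. On the list of EGFR family and ligands 5 of 14 tested genes were called lower at 48 h by the same limma rule and 2 higher, against 6.27% of all tested genes called higher. EREG and HBEGF, 2 of the 5, were chosen by that contrast. AREG, NRG1 and LRIG1 were the other lower genes and ERBB3 and LRIG3 the higher ones, all named after their values were seen.

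The promoter of EREG holds the TEAD motif GGAATG on the strand opposite to the gene, at -175, and that of CCL20 holds it on the opposite strand too, at -45. They are printed with the motif in capitals, for chr4:74364895-74365144 and chr2:227813592-227813841, both on the plus strand.
EREG: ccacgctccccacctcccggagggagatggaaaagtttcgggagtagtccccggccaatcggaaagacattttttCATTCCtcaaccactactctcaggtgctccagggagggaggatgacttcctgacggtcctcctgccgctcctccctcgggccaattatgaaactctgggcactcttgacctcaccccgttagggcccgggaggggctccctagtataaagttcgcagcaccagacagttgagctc
CCL20: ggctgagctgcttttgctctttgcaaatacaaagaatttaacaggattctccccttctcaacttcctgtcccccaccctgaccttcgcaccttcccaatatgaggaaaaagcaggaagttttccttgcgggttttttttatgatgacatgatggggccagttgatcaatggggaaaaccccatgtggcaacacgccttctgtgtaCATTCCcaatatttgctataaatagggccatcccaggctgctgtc
Of the 67 matched genes 13 (19.4%) held GGAATG on either strand, as did 14.05% of all promoters and 11.6% of those of 779 other rises. The AP-1 motif TGANTCA was in 6 of the 67 (8.96%), in 7.76% of all promoters and in 5.01% of those of the other rises. CACGTG was in 8 of the 67 (11.9%), 7.43% of all promoters and 6.93% of those of the other rises. CCACCC was in 33 of the 67 (49.3%) and 33.4% of all promoters, but also in 40.3% of those of the other rises. A match is a description of these letters in a window of 300 bases, and sites further away were not looked at.

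CCL20, which attracts CCR6-bearing immune cells, was a low transcript with 9.10, 7.87 and 8.23 CPM in GFP at 48 h and 4.22, 4.77 and 5.06 in TEADi. At 24 h its levels were 6.72, 8.03 and 7.42 CPM in GFP and 6.60, 6.13 and 6.50 in TEADi. The 24 h libraries of the arms did not overlap either, by a small margin. LCN2, an iron-carrying antimicrobial protein, had 6.17, 5.79 and 6.54 CPM in GFP at 48 h and 2.22, 2.52 and 2.34 in TEADi, while its other groups lay between 1.41 and 2.75 CPM.

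NGFR, the low-affinity neurotrophin receptor found on basal keratinocytes, had the largest difference between the arms. Its GFP libraries had 0.651, 0.599 and 0.423 CPM at 12 h, 1.80, 2.11 and 1.71 at 24 h and 7.18, 7.004 and 6.58 at 48 h. In TEADi it had 0.670, 0.196 and 0.471 CPM at 12 h, 1.54, 1.13 and 1.49 at 24 h and 1.55, 2.21 and 1.502 at 48 h. The GFP mean at 48 h was 12.4 times that at 12 h, whereas in TEADi the 24 h and 48 h libraries overlapped. The lowest NGFR value rests on about 3 reads, so the 12 h level is imprecise. GDF15, a stress-induced cytokine, had 11.1, 10.4 and 12.9 CPM in GFP at 48 h and 5.92, 5.88 and 6.17 in TEADi, above its 12 h values of 2.54 to 3.61 CPM in TEADi.

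Of the list of ERK feedback and AP-1 genes, EGR1, DUSP5 and PHLDA2 were in the set. EGR1, an immediate-early transcription factor, had 7.33, 7.59 and 8.95 CPM in GFP at 12 h, 20.9, 18.6 and 19.9 at 24 h and 39.9, 46.3 and 46.6 at 48 h. In TEADi it had 5.56, 6.92 and 8.19 CPM at 12 h, 20.9, 22.8 and 23.2 at 24 h and 29.3, 22.5 and 26.4 at 48 h. The arms overlapped at 12 h, TEADi was higher by a slight margin at 24 h, and 76.3% of the log2 change from 12 to 48 h remained with TEADi. DUSP5, a nuclear phosphatase of ERK, had 120, 116 and 118 CPM in GFP at 48 h and 77.0, 79.2 and 76.5 in TEADi, and 54.2% of its change remained. All TEADi libraries of DUSP5 were below GFP at 12 h and 24 h too. Its 24 h levels were 93.2, 94.3 and 92.1 CPM in GFP and 83.3, 75.9 and 74.5 in TEADi. PHLDA2, an imprinted growth-restraining gene, had 65.8, 58.7 and 64.8 CPM in GFP at 48 h and 43.2, 35.4 and 31.5 in TEADi. The latter overlapped with the 26.7, 32.8 and 30.9 CPM of TEADi at 12 h, and 28.2% of the change of PHLDA2 remained. On the list of ERK feedback and AP-1 genes 29 were tested, and 13 met the rise in GFP, against 1125 of 13417 tested genes. At 48 h 4 were called lower and 2 higher, against 6.3% and 6.27% of all tested genes. EGR1, DUSP5 and PHLDA2, which that contrast chose, were 3 of the 4 lower ones, and the median difference at 48 h was -0.05. The remaining lower gene was FOSL1 (-0.76), and the higher ones were FOS (1.19) and DUSP10 (0.61), all named after their values were seen. FOS also met the rise in GFP.

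**Figure D5:**
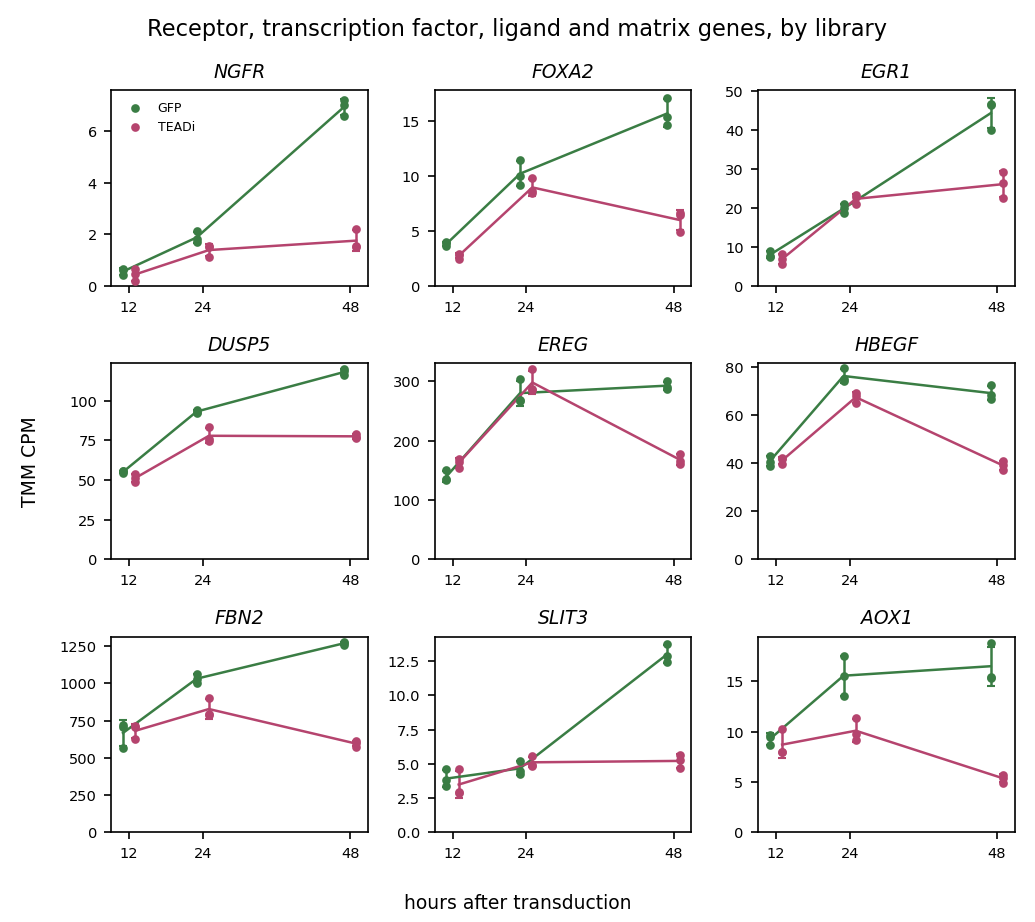
TMM CPM (vertical axes, from 0) against hours after transduction for NGFR, FOXA2, EGR1, DUSP5, EREG, HBEGF, FBN2, SLIT3 and AOX1, with 1 point per library, lines through the means and bars of 1 SD (n = 3), GFP in green and TEADi in magenta. Between 24 h and 48 h SLIT3 and NGFR go up in GFP, whereas FOXA2, EREG, HBEGF and FBN2 come down in TEADi. FBN2 also goes on up in GFP. For NGFR, DUSP5, HBEGF and FBN2 the libraries of the arms already do not overlap at 24 h.

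Among transcription factors FOXA2, a pioneer factor best known from gut and liver, had the largest difference. It had 3.96, 3.89 and 3.63 CPM in GFP at 12 h, 11.4, 9.22 and 10.04 at 24 h and 14.7, 15.4 and 17.1 at 48 h. In TEADi it had 2.47, 2.94 and 2.82 CPM at 12 h, 9.83, 8.64 and 8.47 at 24 h and 6.44, 6.63 and 4.95 at 48 h. FOXA2 was lower in every TEADi library at 12 h, overlapped at 24 h and was lower again at 48 h. HMGA1, an architectural chromatin protein, was far more abundant, with 606, 569 and 561 CPM in GFP at 48 h and 405, 348 and 333 in TEADi. At 24 h HMGA1 was at 580, 508 and 560 CPM in GFP and 536, 563 and 530 in TEADi, so the arms overlapped.

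Secreted and matrix genes included the most abundant transcript of the set by CPM, FBN2, a fibrillin of elastic microfibrils. FBN2 had 570, 710 and 724 CPM in GFP at 12 h, 1028, 1065 and 1003 at 24 h and 1272, 1278 and 1259 at 48 h. In TEADi it had 714, 627 and 705 CPM at 12 h, 903, 795 and 787 at 24 h and 575, 613 and 599 at 48 h. TEADi at 48 h was below TEADi at 12 h in all libraries, although GFP and TEADi had overlapped at 12 h. FBN2 was the only 1 of 44 tested genes on the matrix and basement membrane list that was in the set.

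SLIT3, a ligand of Robo guidance receptors, overlapped in GFP between 12 and 24 h and was higher at 48 h. It had 4.51, 4.27 and 5.25 CPM in GFP at 24 h and 12.4, 12.9 and 13.7 at 48 h, and 5.31, 4.69 and 5.67 CPM in TEADi at 48 h. CDH4, a classical cadherin, also had most of its difference after 24 h, with 14.8, 13.8 and 13.4 CPM in GFP at 24 h, 31.3, 30.96 and 32.2 at 48 h, and 16.4, 16.6 and 14.1 in TEADi at 48 h. The netrin relative NTNG1 had 11.9, 12.0 and 12.1 CPM in GFP at 48 h and 5.98, 5.17 and 4.45 in TEADi. For these 3 genes the deposited TPM values at 48 h averaged 0.0183, 0.0411 and 0.0314 in GFP, and with TPM and a pseudocount of 0.1 the log2 differences were -0.14, -0.22 and -0.20.

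Other genes with a large difference at 48 h had various roles. AOX1, aldehyde oxidase, had 18.8, 15.3 and 15.4 CPM in GFP at 48 h and 5.72, 5.44 and 4.95 in TEADi, which was below its 12 h values of 8.63, 9.48 and 9.68 in GFP and 7.93, 7.95 and 10.3 in TEADi. FUT3, the fucosyltransferase that makes Lewis antigens, had 11.6, 13.1 and 11.6 CPM in GFP at 48 h and 4.002, 5.08 and 2.86 in TEADi. Both were near the 24 h limit, with differences of -0.58 and -0.54 at that time. SLC6A6, the taurine transporter, had 94.8, 86.7 and 90.4 CPM in GFP at 48 h and 53.01, 54.9 and 53.1 in TEADi, and SLC48A1, a haem transporter, 14.3, 13.97 and 13.5 CPM and 5.82, 5.44 and 5.90 CPM. In TEADi at 24 h SLC48A1 had 6.99, 5.10 and 6.61 CPM, overlapping with 6.34, 8.93 and 8.56 at 12 h. NPDC1 had 17.04, 18.7 and 17.2 CPM in GFP at 48 h and 8.50, 8.31 and 5.84 in TEADi. The histone chaperone relative NPM3 had 35.6, 36.9 and 40.0 CPM in GFP at 48 h and 24.3, 22.7 and 20.02 in TEADi.

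By RefSeq symbols 83 of the 96 genes were protein coding, 5 were of another type and 8 were not matched. Per unit length, the highest GFP levels at 48 h were those of RN7SL2, AC022596.6, MIR205HG, HMGA1, SHMT2 and RN7SL1, with mean deposited TPM values of 94.6, 81.7, 76.9, 55.6, 54.0 and 53.6. MIR205HG, the host transcript of miR-205, had 191, 194 and 187 CPM in GFP at 24 h and 332, 350 and 349 at 48 h, and 209, 224 and 221 CPM in TEADi at 48 h. AC022596.6 had 405, 414 and 434 CPM in GFP at 48 h and 272, 252 and 257 in TEADi. RP11-488P3.1 had 47.7, 50.1 and 52.8 CPM in GFP at 48 h and 24.4, 24.7 and 21.0 in TEADi, and C6orf223 15.3, 14.2 and 16.01 CPM and 6.70, 6.19 and 6.95 CPM. SFTA1P had 12.3, 13.3 and 12.5 CPM in GFP and 4.89, 4.86 and 5.06 CPM in TEADi.

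Several of these rows are uncertain because reads can belong to near-identical copies. RN7SL1 and RN7SL2 encode the signal recognition particle RNA, and BCYRN1 is related to it through the Alu repeat. RN7SL2 had 2.86, 4.11 and 14.7 CPM in GFP at 12 h, so 1 library was over 3 times the others, and 30.9, 27.0 and 35.8 CPM at 48 h against 13.3, 19.1 and 15.6 in TEADi. BCYRN1 had 21.6, 30.7 and 27.1 CPM in GFP at 48 h and 9.94, 12.8 and 9.73 in TEADi. LGALS9B, RPL34 and RPL39L have close paralogs or pseudogenes as well, and LINC00341 is listed beside SYNE3, which RefSeq gives as 1 gene. FDXACB1 had 0.0543, 3.52 and 2.97 CPM in GFP at 12 h and 3.08, 0.0515 and 0.0571 at 24 h, a spread within groups of up to 64.9-fold, and nothing is read from it.

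The set was made of genes of low to moderate level. The median GFP level at 12 h was 7.66 CPM, against 11.7 CPM over the other rises and 21.6 CPM over all tested genes, and 74 of the 96 reached 5 CPM in GFP at 48 h. The filter on low values was passed in all libraries by 76 genes and only through GFP at 48 h by 6 (TM6SF1, IL1RL1, COL13A1, KCNJ5, HES7 and INHBE), which had to differ. Just inside the 48 h limit lay ADAP1, POU2F2, INHBE and RPL39L, with differences from -0.60 to -0.59. Just outside lay PHLDA1, FADS3, GRAMD2 and TNFSF4, with differences of -0.58, -0.58, -0.57 and -0.57.

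Other lists of related genes contributed few members or none. All 13417 tested genes held only 96 members, so 0 in lists of this size is a description. Of the 13417, 1125 met the rise in GFP, and at 48 h 6.3% were called lower and 6.27% higher in TEADi. The 24 tested YAP/TAZ-TEAD targets held 0 of the 96, 1 gene that met the rise in GFP and 12 called lower in TEADi at 48 h. The unfolded protein response list, which neighbours the ATF4 list, held 0 members and 0 rises among 19 tested, with 9 called lower at 48 h. Of 36 tested hypoxia and glycolysis genes 18 met the rise in GFP, 0 were members and 9 were called higher in TEADi. Keratinocyte differentiation genes held 0 members among 8 rises, with 21 of 27 called higher in TEADi. S phase genes held 0 members and 0 rises, with 40 of 43 called lower.

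The comparison of TEADi with GFP at 12 h asked whether the genes differed at the earliest time. By limma 0 of the 96 were called at an adjusted p under 0.05 and 1.5-fold, against 0.0447% of all tested genes (6 of 13417), and 11 of the 96 had an unadjusted p under 0.05, against 18.2% of all tested genes. Without the fold limit 1 gene passed in each direction, against 1.1% of all tested genes. SLC7A11 was higher in 3 of 3 TEADi libraries, with a log2 difference of 0.33 ± 0.07 (SE). HMGA1, at 388, 369 and 362 CPM in GFP and 294, 318 and 329 in TEADi, was lower in 3 of 3 with a difference of -0.25 ± 0.06. Libraries did not overlap in 6 genes that were higher, against 10.9% of all tested genes, and in 9 that were lower, against 11%. The GFP libraries of 12 h took part in choosing the genes, and a low value there favoured the choice, which moves this comparison upward for the 96, so no p-value is given for single genes and the counts are a description.

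The comparison of TEADi at 24 h with TEADi at 12 h asked whether the genes were higher at 24 h under the inhibitor too. The TEADi libraries of 24 h entered the choice through the limit at that time, which kept genes with higher values there, so its counts and differences are a description and no p-value is given for single genes. By limma 27 of the 96 (28.1%) were called higher and 0 lower, against 2.68% of all tested genes called higher and 2.85% called lower, and against 229 of the 1029 other rises (22.3%). The count was 10 with a pseudocount of 5, 6 with TPM and a pseudocount of 1, and 15 with TPM and a pseudocount of 0.1. At the adjusted p alone 59 were higher, against 25% of all tested genes, and 1, SLC48A1, was lower, against 15.5%.

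EGR1 had the largest difference of the 96, 1.57 ± 0.10 on the log2 scale (SE), followed by FOXA2 with 1.41 ± 0.11. The difference was 0.97 ± 0.13 for CCL20, 0.92 ± 0.13 for GDF15 and 0.92 ± 0.07 for ARG2. Of the 9 ATF4-response genes ASNS, CHAC1 and PCK2 were called, and all 9 passed the adjusted p. EREG and HBEGF were called as well, with differences of 0.87 ± 0.06 and 0.70 ± 0.05. Among the early genes 23 of 60 were called and among the late genes 4 of 36. Early genes were defined by a higher GFP level at 24 h, and the limit kept TEADi from lying far below it. The choice thus favoured more calls among the early genes, and this contrast is a description.

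At 24 h all 3 TEADi libraries lay below all 3 GFP libraries in 44 of the 96 genes, against 16.4% of all tested genes. Since the choice set a limit at 24 h and used the same arms at 48 h, this count is a description.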

How the data were processed

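RNA-seq was read from 18 libraries of N/TERT2G keratinocytes, 3 for each virus (GFP or TEADi) and time (12, 24 or 48 h). Per the submitters' processing notes, reads were processed with Trimmomatic 0.36, STAR 2.5.1 and Partek 8.0.19.0819 on hg19, and how strand was handled in counting was not stated. The authors deposited TMM normalized CPM values, whose totals were 851071 to 943329 per library, and TPM values, whose totals were 98912.9 to 99722.1 and thus far below the usual TPM total, so that a pseudocount of 1 weighs heavily on them. The deposited p-values, FDR q-values, ratios, fold changes and least squares means of the authors' own comparisons were not used.

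Depth was estimated at 14.2 to 26.7 M reads. Of the low values, 74.8% to 78.0% came within 0.01 of whole reads, so no count model was used. Tests were made with limma 3.58.1 (R 4.3.3, trend and robust) on log2(CPM + 1), with 6 group means over all 18 libraries, over 13417 genes that reached 1 CPM in 3 libraries or more. Genes were called at a Benjamini-Hochberg adjusted p under 0.05 and 1.5-fold, and the procedure was tested on simulated data. Fold changes on this scale understate those of low genes. The members and gene lists were chosen with earlier results of these data known.

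Named genes were those of at least 5 CPM in GFP at 48 h with the 15 largest differences at 48 h, the 10 largest rises in GFP or the 10 highest TPM, up to 6 per gene list, the 4 nearest each side of the 48 h limit, and up to 5 called each way in the tests. Other names were chosen after values were seen. Promoters (RefSeq, GRCh38.p14) ran from 250 bases before to 50 after the start and were found for 67 of the 96 genes, 2 of them by synonym. Alternatives were other pseudocounts, filters, TPM values, a fold limit of 2, fits without trend, on fewer libraries or with a replicate block, and leaving out each library. TPM with a pseudocount of 0.1 and the core ATF4 motif were added after seeing the data.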

Additional observations from a re-analysis of the deposited data

Results flagged for a closer look

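In 6 of the 96 genes all 3 TEADi libraries lay above all 3 GFP libraries at 12 h and below them at 48 h. Of all tested genes 10.9% lay above GFP without overlap at 12 h, so the 6 are a smaller share. The choice of genes required the order at 48 h, and a low GFP value at 12 h favoured the choice. Both parts of this pattern are thus a description. The log2 differences between TEADi and GFP at 12 h and 48 h were 0.33 and -0.81 for SLC7A11, 0.22 and -0.80 for EREG, and 0.21 and -1.01 for COL13A1. They were 0.15 and -0.87 for DENND2A, 0.15 and -0.91 for SLC43A1, and 0.14 and -0.68 for FAM129A. COL13A1, DENND2A and SLC43A1 were named after their values were seen. The difference between the times was not tested.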

How the results depend on the processing

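The rule gave 48 genes with a pseudocount of 5, 18 with TPM and a pseudocount of 1, 45 with TPM and a pseudocount of 0.1, and 9 with a fold limit of 2, of which 44, 16, 40 and 9 were among the 96. Genes called between TEADi at 24 h and 12 h numbered 10, 6 and 15 with a pseudocount of 5, TPM with 1 and TPM with 0.1, and 60 at the adjusted p alone, where 2 were called at 12 h. Those at least 1.5-fold higher in TEADi at 48 h than at 12 h by size numbered 8, 5 and 9. Leaving out 1 library gave 90 to 111 genes by the rule, 0 to 0 called at 12 h, 25 to 31 at 24 h and 16 to 20 by size. With a replicate block 0 genes were called at 12 h and 29 at 24 h, with all 27 shared. The replicate numbers gave same-number correlations of -0.18 to 0.0023, so samples share only a number. Of 820 values of the 41 named genes under these settings, 148 moved by more than the spread between replicates and 0 reversed. The 148 comprised 5 with a pseudocount of 0.5, 35 with 5, 69 with TPM and 1, and 39 with TPM and 0.1. The 492 values that left out a library could not move by this measure, since leaving out 1 of 3 shifts a mean by less than that spread. With TMM values the choice of genes also barred a reversal of the 48 h difference. A larger pseudocount draws low genes toward no change by its construction. Levels under 1 CPM rest on few reads, such as 3 for the lowest NGFR value.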
